A study of Homo sapiens with 8 samples.

Results

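The mitochondrial ribosomal protein genes are the nuclear genes for the proteins of the ribosome that works inside mitochondria. They were taken as every gene of the count table whose Ensembl identifier is protein-coding in GENCODE 44 and whose symbol starts with MRPL, for the large subunit, or MRPS, for the small subunit. This gave 78 of the 58302 genes, 49 of them MRPL and 29 MRPS, spread over 21 chromosomes with at most 8 on a single one, chromosome 17. Mitochondrial ribosomes translate the few messenger RNAs of the mitochondrial genome, which encode core subunits of the respiratory chain and of ATP synthase. Their ribosomal RNAs, 12S and 16S, come from the mitochondrial genes MT-RNR1 and MT-RNR2, whereas all their proteins are encoded in the nucleus, made in the cytosol and imported. Some of these proteins descend from bacterial ribosomal proteins and others are found only in mitochondrial ribosomes.

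The libraries came from A549, a line of human lung adenocarcinoma cells. Total RNA was read from cells transiently transfected with a small interfering RNA (siRNA) against APE1, the DNA repair endonuclease encoded by APEX1 (4 libraries labelled siAPEX1), and from cells transfected with a scramble siRNA (4 libraries labelled siCTRL). The kit, made for small RNA, was modified so that primary miRNA transcripts were also caught, and was read as single-end sequences. The comparison asked which transcripts differed between cells silenced for APE1 and control cells, and the study calls the 4 libraries of a group biological replicates. The labels do not say whether they came from separate cultures, so each p-value measures the spread between these libraries.

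The libraries held 1348386 to 1949886 reads counted on genes. Every siAPEX1 library was smaller than every siCTRL library, so library size and condition cannot be told apart. APEX1 (chromosome 14 from 20455191 to 20457772, GRCh38) had 51, 61, 64 and 47 counts in the siCTRL libraries and 21150, 19470, 27916 and 20767 counts in the siAPEX1 libraries, so that its log2 fold change was 9.29 (SE, the standard error, 0.127, adjusted p = 8.97e-42 by the quasi-likelihood test of edgeR). This goes against the label of silenced cells. The study checked the silencing by the level of the protein, which was not analysed here, and a count on the gene may include reads of the transfected siRNA as well as of its transcript. Every direction given here is therefore that of the libraries labelled siAPEX1 against the libraries labelled siCTRL. The 4 epithelial keratins KRT7, KRT8, KRT18 and KRT19 had 992 to 1343 counts in sum in the siCTRL libraries and 251 to 320 in the siAPEX1 libraries, and all 4 were lower by the same test. Of 6 markers of leukocytes, fibroblasts and endothelium, 2 were at 0 in every library and the 6 together had 2 to 12 counts per library. The part of the keratin difference in the results of the family was not tested, and in bulk RNA fewer cells of a kind and less RNA per cell cannot be told apart.

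All 78 genes had at least 1 count, but few reads fell on each. The summed count of the family was 1197, 1221, 1298 and 1034 in the siCTRL libraries and 754, 664, 819 and 704 in the siAPEX1 libraries. Only 9 genes had at least 10 counts in every library, and MRPL23, MRPL53 and MRPS24 had at most 3 counts in any library, so that no fold change is given for them. The filter on low counts kept 38 of the 78 genes for the test, 20 of the large and 18 of the small subunit. Their mean counts were 9.0 to 78.9, with a median of 15.4 against 21.4 for all 5368 genes tested. The 40 genes below the filter, 29 of the large and 11 of the small subunit, had mean counts of 0.25 to 10.1.

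As a share of all counts on genes, the family was lower in the siAPEX1 libraries, and as a share of the counts on nuclear protein-coding genes it was not. Its share of all counts was 0.0668%, 0.0637%, 0.0666% and 0.0631% in the siCTRL libraries (mean 0.065% ± 0.00192, SD, n = 4) and 0.0559%, 0.0465%, 0.0506% and 0.0483% in the siAPEX1 libraries (0.0503% ± 0.00409, SD, n = 4). The groups did not overlap, and the siAPEX1 mean was 77.4% of the siCTRL mean. Nuclear protein-coding genes together, APEX1 left out, took 15.4% ± 0.296 of all counts in the siCTRL libraries and 12.2% ± 0.323 in the siAPEX1 libraries (SD, n = 4 each), which is 79.3% of the siCTRL mean and also without overlap.

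Within the counts on nuclear protein-coding genes, the family held 0.425%, 0.425%, 0.431% and 0.408% in the siCTRL libraries and 0.44%, 0.384%, 0.419% and 0.403% in the siAPEX1 libraries. The means were 0.422% ± 0.00986 and 0.411% ± 0.0239 (SD, n = 4 each) and the groups overlapped. CPM are counts divided by the library size after correction with edgeR's TMM factors, which balance libraries on the bulk of their genes. On this scale the summed level was 592 ± 13.9 CPM in the siCTRL libraries and 577 ± 35.9 CPM in the siAPEX1 libraries (SD, n = 4 each), again with overlap.

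Both subunits followed the family. The large subunit took 0.247% ± 0.00821 of the nuclear protein-coding counts in the siCTRL libraries and 0.244% ± 0.0154 in the siAPEX1 libraries, and the small subunit 0.175% ± 0.00579 and 0.168% ± 0.00996 (SD, n = 4 each). The ratio of large to small subunit counts, which depends neither on library size nor on scaling, was 1.45, 1.32, 1.46 and 1.40 in the siCTRL libraries and 1.5, 1.51, 1.45 and 1.37 in the siAPEX1 libraries. The means of 1.41 ± 0.0655 and 1.46 ± 0.0618 (SD, n = 4 each) lay within the spread between libraries. With the genes placed by the structure of the human ribosome in place of their symbol (MRPS30 and MRPS18A in the large subunit, MRPS36 in neither), the ratio was 1.56 ± 0.065 against 1.62 ± 0.0853, and the groups overlapped as well.

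**Figure D1:**
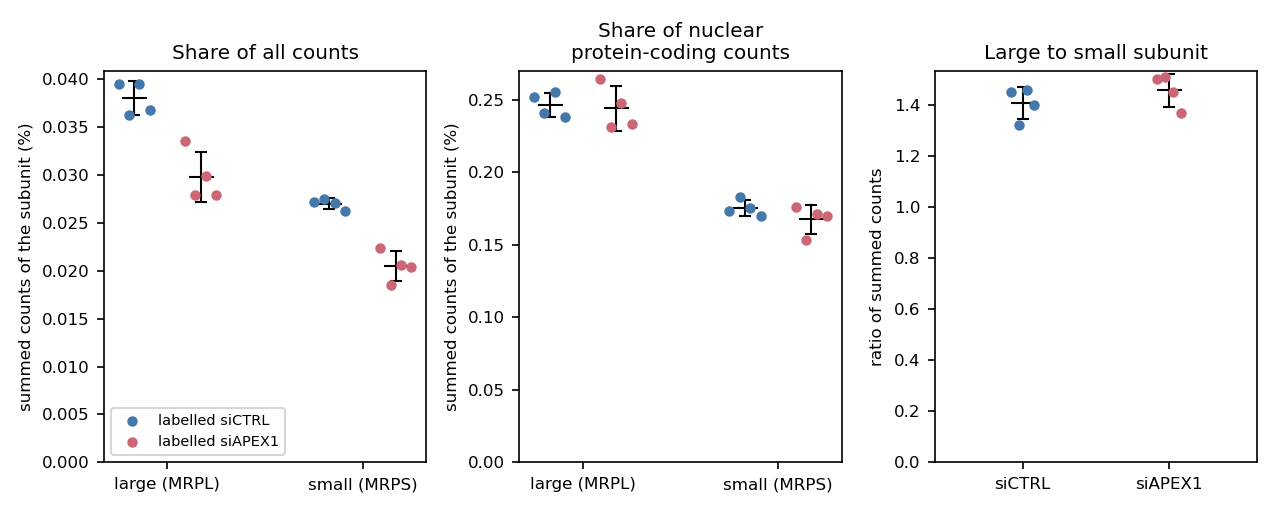
Summed counts of the large and the small subunit genes in each library, as a percent of all counts on genes (left) and of counts on nuclear protein-coding genes (middle), and the ratio of large to small subunit counts (right). Points are libraries, crosses the mean with its SD (n = 4 per group), blue siCTRL and red siAPEX1; the groups part in the left panel alone.

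Tested gene by gene, few members of the family differed between the groups. At an adjusted p of at most 0.05, MRPS16 was lower and MRPS21 and MRPS25 were higher in the siAPEX1 libraries, which is 3 of the 38 tested genes, or 7.89%. Over all 5368 genes tested the same call was made for 31.7%, with 15.8% lower and 15.9% higher. All 3 belong to the small subunit, of which 18 genes were tested. None of the 20 tested genes of the large subunit was called by edgeR, though 2 of them had an unadjusted p under 0.05. DESeq2 called 0 genes of the large subunit and 1 of the small subunit, MRPS16. Whether the subunits differ in the share of genes called was not tested.

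At an unadjusted p under 0.05 stood 6 of the 38 genes, 3 lower and 3 higher, against 41.0% of all genes tested. With a log2 fold change of 1 or more in either direction asked for as well, MRPS16 was the 1 gene left, where 5.68% of all genes tested were lower and 3.6% were higher. The libraries of the groups did not overlap for 1 tested gene that was lower, MRPS16, and 1 that was higher, MRPS21, against 14.9% and 14.0% of all genes tested. The median log2 fold change was -0.01 over the 38 genes, 0.13 over the 20 of the large subunit and -0.08 over the 18 of the small subunit. It was 0.00 over all genes tested and -0.03 over the nuclear protein-coding genes among them. The opposite signs of the subunits did not hold in every fit. The median of the large subunit was -0.18 to -0.01 in 5 of the 8 fits that left out 1 library. The filter was run anew in these, so that 23 to 31 of its genes were tested. The library left out and the genes added cannot be told apart there. Over the same 20 genes the median was 0.11 to 0.17 with 3 other scalings, DESeq2 and the replicate block, and -0.21 with library size as the sole scaling. Over all genes with at least 1 count it was -0.20 for the large and -0.17 for the small subunit.

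Depth set how much of a difference could be seen. The standard error of the log2 fold change was 0.135 to 0.357 over the 38 genes, with a median of 0.27 against 0.233 for all genes. For 30 of them, 17 of the large and 13 of the small subunit, the 95% interval of the log2 fold change lay within 1 on either side of 0, and for 8 it reached 1 or -1. A p above the threshold does not show that a gene was alike in both groups.

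**Figure D2:**
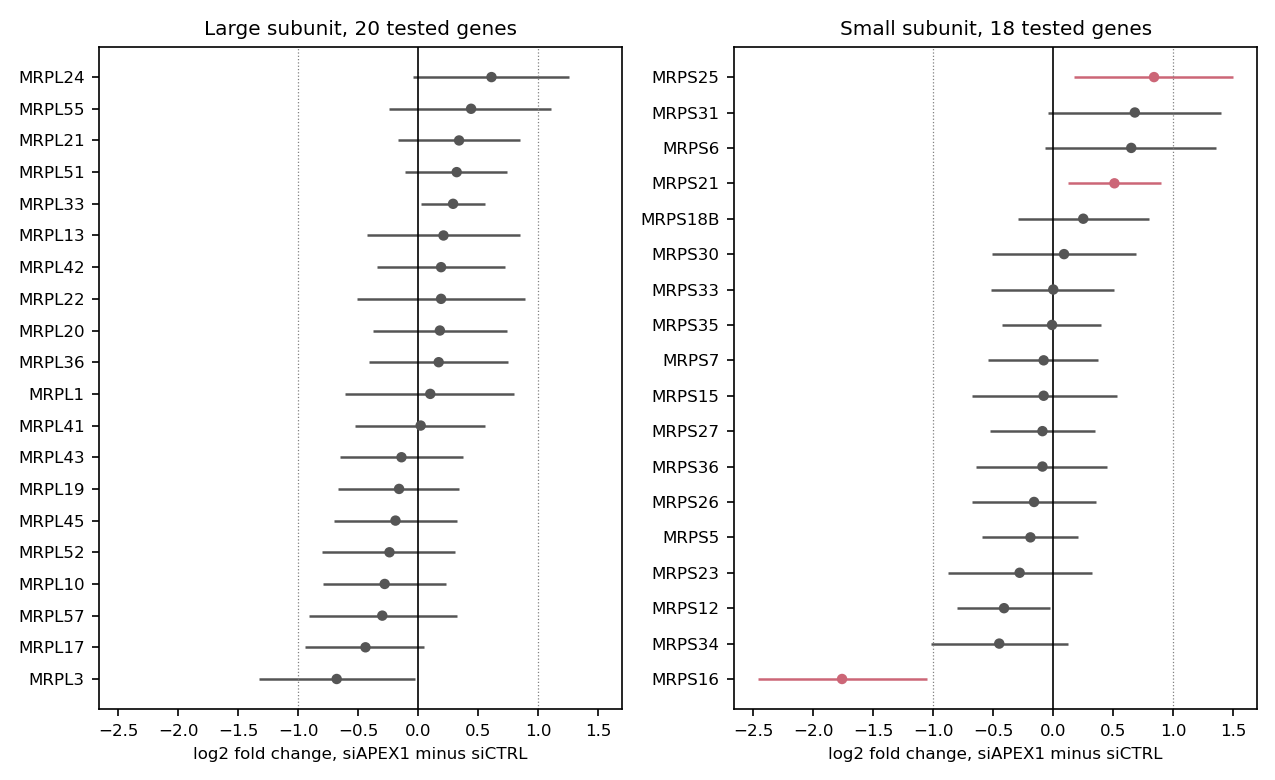
Log2 fold change of each tested gene, siAPEX1 minus siCTRL, with its 95% confidence interval, for the 20 genes of the large subunit (left) and the 18 of the small subunit (right). Red marks an adjusted p of at most 0.05 by edgeR, which MRPS16, MRPS21 and MRPS25 reached, and dotted lines stand at -1 and 1.

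The sequences around the start sites of these 3 genes are shown because they carry the calls of the family. Each runs from 100 bases before to 30 bases after the first transcribed base given by RefSeq on GRCh38.p14, on the strand of the gene. Capitals mark CTTCCGG, the core of the element bound by ETS factors, on either strand. MRPS16 lies at chr10:73252615-73252744 on the minus strand, MRPS21 at chr1:150293761-150293890 on the plus strand and MRPS25 at chr3:15065286-15065415 on the minus strand.
MRPS16: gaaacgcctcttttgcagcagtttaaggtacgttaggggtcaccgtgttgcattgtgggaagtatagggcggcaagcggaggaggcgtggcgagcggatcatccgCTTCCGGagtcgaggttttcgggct
MRPS21: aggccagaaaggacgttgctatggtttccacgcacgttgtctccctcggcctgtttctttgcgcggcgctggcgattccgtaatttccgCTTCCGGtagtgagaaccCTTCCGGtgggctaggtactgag
MRPS25: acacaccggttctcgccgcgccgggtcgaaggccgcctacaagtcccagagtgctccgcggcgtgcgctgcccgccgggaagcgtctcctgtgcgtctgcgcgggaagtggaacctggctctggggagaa
The letters occur in the windows of MRPS16 and MRPS21 and not in that of MRPS25. This short core was added after sequences were seen, and the longer core chosen first, ACTTCCGG, occurs in none of these windows. In the wider promoter windows described further on, CTTCCGG was found for 43.5% of the family and 16.5% of protein-coding genes.

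MRPS16 (ENSG00000182180, chromosome 10 from 73248843 to 73252693, minus strand, GRCh38) encodes a small subunit protein with a bacterial counterpart. Its counts were 24, 16, 21 and 31 in the siCTRL libraries and 2, 6, 5 and 4 in the siAPEX1 libraries. In CPM these were 12.1, 7.75, 9.73 and 17.2 against 1.65, 4.87, 3.6 and 3.18, so that every siAPEX1 library lay below every siCTRL library. The log2 fold change was -1.76 (SE 0.349, 95% interval -2.46 to -1.05, adjusted p = 1.03e-04, edgeR). An exon of the antisense RNA DNAJC9-AS1 (ENSG00000236756) overlaps the gene on the other strand, and that RNA had 0 counts in every library. MRPS16 passed the filter on low counts through the siCTRL libraries alone, where it was higher. The filter that asked for at least 10 counts in every library left it out. It was called in the fit over all genes with at least 1 count (-1.85, adjusted p = 2.59e-06, edgeR). MRPS16 was the 1 gene of the family with the same call under every alternative in which it was tested.

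MRPS21 (ENSG00000266472, chromosome 1 from 150293861 to 150308979, plus strand) also encodes a small subunit protein with a bacterial counterpart. Its counts were 28, 37, 40 and 21 in the siCTRL libraries and 27, 27, 26 and 34 in the siAPEX1 libraries, which are 14.1, 17.9, 18.5 and 11.6 CPM against 22.2, 21.9, 18.7 and 27.0 CPM. The groups did not overlap in CPM, but the highest siCTRL and the lowest siAPEX1 library lay next to each other, and the counts before scaling did overlap. The log2 fold change was 0.51 (SE 0.192, adjusted p = 0.0379, edgeR). The call was lost without siCTRL replicate 1 (adjusted p = 0.0854) or 4 (0.113), without siAPEX1 replicate 1 (0.0511) or 4 (0.127), and by DESeq2 (0.128).

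MRPS25 (ENSG00000131368, chromosome 3 from 15009611 to 15065339, minus strand) encodes a small subunit protein found in mitochondrial ribosomes and not in bacterial ones. It had 12, 6, 11 and 6 counts in the siCTRL libraries and 7, 9, 15 and 9 in the siAPEX1 libraries. In CPM these were 6.03, 2.91, 5.1 and 3.32 against 5.76, 7.3, 10.8 and 7.15, and the groups overlapped through siAPEX1 replicate 1. The log2 fold change was 0.84 (SE 0.33, adjusted p = 0.0481, edgeR), and the call was lost without siCTRL replicate 2 (0.151), 3 (0.0578) or 4 (0.113), without siAPEX1 replicate 2 (0.0656), 3 (0.236) or 4 (0.07), and by DESeq2 (0.159). Its exons overlap ENSG00000289750, which was not analysed here, on the same strand and NR2C2 on the other strand. NR2C2 had 11, 13, 23 and 15 counts in the siCTRL libraries and 9, 8, 9 and 11 in the siAPEX1 libraries, a log2 fold change of -0.09 (adjusted p = 0.855, edgeR).

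**Figure D3:**
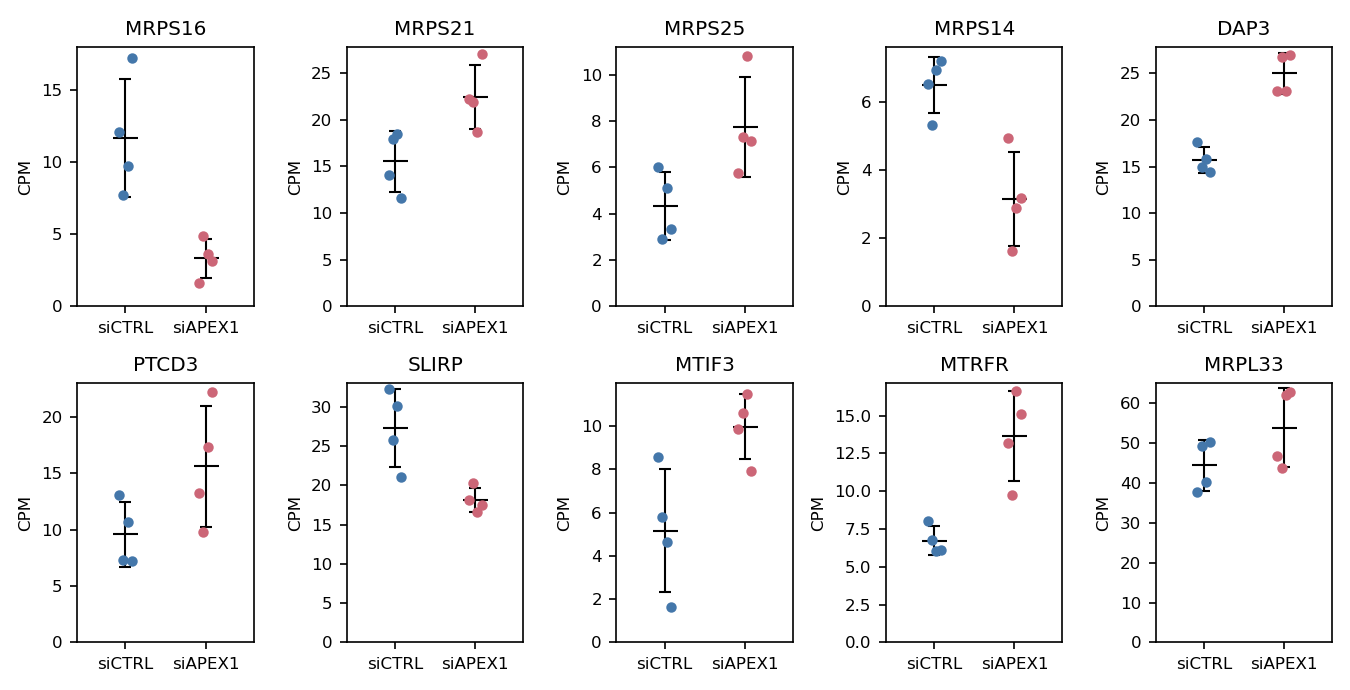
Level of 10 genes in each library in CPM scaled with TMM factors, for siCTRL (blue) and siAPEX1 (red), with crosses for the mean and SD (n = 4 per group). The upper row shows 4 small subunit genes and DAP3, and the lower row PTCD3, 3 genes of mitochondrial translation and MRPL33, the family's most abundant gene; the groups part for MRPS16, MRPS21, MRPS14, DAP3, SLIRP and MTRFR.

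Levels of different genes were compared per kilobase of the canonical GENCODE 44 transcript, since these genes have transcripts of 496 to 15557 bases. A gene whose cells use a shorter transcript would be understated. Whether counts from this kit, made for small RNA, rise with transcript length was not tested. MRPL42, with 15557 bases, had a mean count of 14.9, and MRPL41, with 582 bases, had 14.4. The order by counts differs: MRPL21 stood above MRPS5 per kilobase, with mean counts of 17.4 and 27.6. The median was 4.19 CPM per kilobase over the large and 3.94 over the small subunit. MRPL33 stood apart with 87.5 ± 12.5 CPM per kilobase in the siCTRL libraries and 106 ± 19.5 in the siAPEX1 libraries (SD, n = 4 each). The gene next in order, MRPS12, had 21.5 ± 3.22 and 16.2 ± 1.25. MRPL51, with 16.5 ± 4.74 and 20.8 ± 3.96, and MRPS21, with 14.3 ± 3.02 and 20.7 ± 3.14, came after it, and these 3 neighbours did not differ from each other beyond their spread over the 8 libraries. The exons of MRPL33 overlap those of BABAM2 on the same strand, and how reads in shared bases were counted was not analysed.

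Among the large subunit genes with the highest levels per kilobase was MRPL33, which encodes a small protein with a bacterial counterpart. MRPL33 had 75, 102, 87 and 91 counts in the siCTRL libraries and 57, 54, 86 and 79 in the siAPEX1 libraries. Its log2 fold change was 0.29 (SE 0.135, adjusted p = 0.101, edgeR), and the CPM of the groups overlapped. Without siAPEX1 replicate 2 the log2 fold change was 0.40 and passed the threshold (adjusted p = 0.0308, edgeR). MRPL51, found only in mitochondrial ribosomes, had a log2 fold change of 0.32 (SE 0.211, adjusted p = 0.266, edgeR), and MRPL21, with a bacterial counterpart, had 0.34 (SE 0.255, adjusted p = 0.334, edgeR).

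The large subunit genes with the log2 fold change closest to 0 were MRPL41 (0.02, 95% interval -0.53 to 0.56), MRPL1 (0.10, -0.61 to 0.80) and MRPL43 (-0.14, -0.65 to 0.37). MRPL1 encodes the protein of the mobile stalk next to the exit site for transfer RNA, and its siAPEX1 libraries ranged from 0.812 to 11.9 CPM around siCTRL libraries of 5.33 to 7.75 CPM. MRPL43 overlaps SEMA4G and TWNK, the gene of the mitochondrial DNA helicase, on the other strand. The lowest log2 fold change of the large subunit was that of MRPL3 (-0.68, standard error 0.322, adjusted p = 0.104, edgeR), which was named after its value was seen and whose groups overlapped.

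In the small subunit, MRPS12, whose bacterial counterpart helps to keep decoding accurate, had 48, 43, 45 and 30 counts in the siCTRL libraries and 21, 18, 21 and 19 in the siAPEX1 libraries. Its CPM were 24.1, 20.8, 20.9 and 16.6 against 17.3, 14.6, 15.1 and 15.1, and 1 siCTRL library lay among the siAPEX1 libraries. The log2 fold change was -0.41 (SE 0.191, adjusted p = 0.096, edgeR). It passed the threshold with library size as the sole scaling (-0.75, adjusted p = 0.0013) and when each library had to hold 10 or more counts of a gene (-0.50, adjusted p = 0.0339). MRPS7 and MRPS26 had log2 fold changes of -0.08 (95% interval -0.54 to 0.37) and -0.16 (-0.68 to 0.36).

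The small subunit genes closest to 0 were MRPS33 (0.00, 95% interval -0.52 to 0.51), MRPS35 (-0.01, -0.43 to 0.40) and MRPS15 (-0.08, -0.68 to 0.53). MRPS35, specific to mitochondria, had 16.1, 17.4, 16.7 and 17.2 CPM in the siCTRL libraries and 9.06, 18.7, 17.3 and 21.4 CPM in the siAPEX1 libraries. The siCTRL libraries were close together, and the siAPEX1 libraries lay on both sides of them.

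MRPS30, which carries a small subunit symbol but sits in the large subunit, had a log2 fold change of 0.09 (95% interval -0.51 to 0.69). The 3 paralogues MRPS18A, MRPS18B and MRPS18C descend from a single bacterial protein and take different places in the ribosome. MRPS18B was the most abundant of them, with 7.41 ± 1.53 CPM per kilobase in the siCTRL libraries and 8.76 ± 4.21 in the siAPEX1 libraries (SD, n = 4 each), and a log2 fold change of 0.25 (95% interval -0.29 to 0.80). MRPS18C had 9, 13, 15 and 10 counts in the siCTRL libraries and 7, 9, 9 and 5 in the siAPEX1 libraries, and MRPS18A had 2, 2, 6 and 5 against 3, 1, 1 and 2. Both were below the filter, and the CPM of their groups overlapped.

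Of the 40 genes below the filter, 1 had groups that did not overlap, MRPS14, which was named after its values were seen. Among all 12868 genes below the filter with mean counts in the range of these 40, the siAPEX1 libraries were lower without overlap for 3.69%. It encodes a small subunit protein with a bacterial counterpart and lies on chromosome 1 from 175010789 to 175023425 on the minus strand, with exons that overlap CACYBP on the other strand. Its counts were 13, 11, 15 and 13 in the siCTRL libraries and 6, 2, 4 and 4 in the siAPEX1 libraries, or 6.54, 5.33, 6.95 and 7.19 CPM against 4.94, 1.62, 2.88 and 3.18 CPM. In the edgeR fit over all 22272 genes with at least 1 count, its log2 fold change was -1.12 (SE 0.402, adjusted p = 0.0602). Leaving out 1 library brought it above the filter in 5 cases, and it was called without siCTRL replicate 2 (-1.11, adjusted p = 0.0349) and without siAPEX1 replicate 1 (-1.28, adjusted p = 0.028) and not without siAPEX1 replicate 2, 3 or 4 (adjusted p = 0.0808 to 0.14). That fit called 1 of the 78 genes, MRPS16, and 8.21% of all its genes, and the median log2 fold change of the 78 genes was -0.17, beside -0.05 over all genes and -0.13 over nuclear protein-coding genes.

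**Figure D4:**
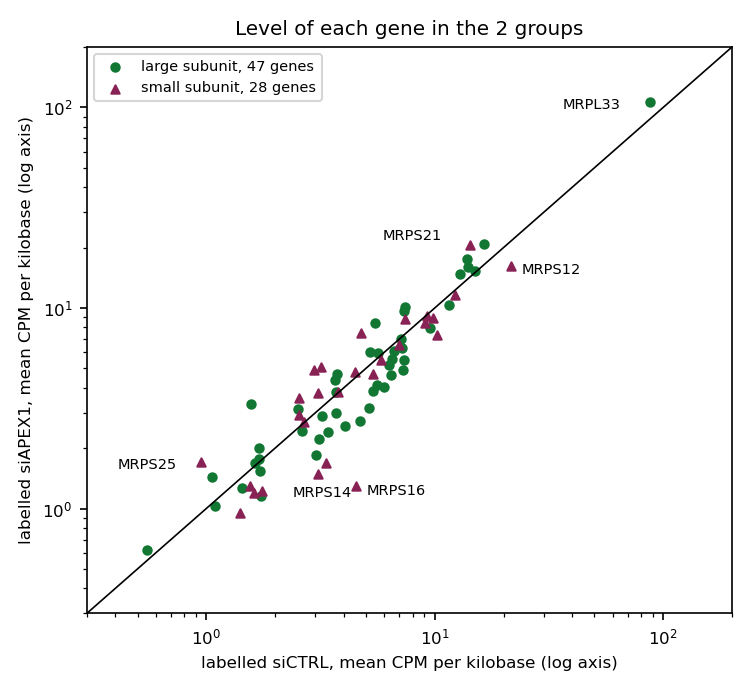
Mean level of each gene in the siCTRL (horizontal) and siAPEX1 (vertical) libraries in CPM per kilobase of the canonical transcript, on log axes, with equal levels on the line. Circles are 47 large and triangles 28 small subunit genes, without the 3 genes that had at most 3 counts in any library; MRPS16 and MRPS14 lie below the line, MRPS25 and MRPS21 above it.

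Grouped by origin, none of the 12 tested large subunit genes listed with a bacterial counterpart passed the edgeR test, with a median log2 fold change of 0.17. None of the 7 tested that were listed as specific to mitochondria passed it either, with a median of -0.14. MRPL55 was also tested but was in neither list, so neither median includes it (0.44, SE 0.334, adjusted p = 0.344, edgeR). Of the 7 tested small subunit genes with a bacterial counterpart, MRPS16 was lower and MRPS21 higher, with a median of -0.08. Of the 8 tested that are specific to mitochondria, MRPS25 was higher, with a median of -0.05. The tested genes MRPS18B, MRPS30 and MRPS36 were in neither list of the small subunit. By place in the large subunit, few genes had enough counts to be tested. These were 1 of 3 genes of the stalk that does not hold MRPL1 (MRPL10, -0.28) and 3 of 7 genes around the peptide exit tunnel. Of the 6 genes of the central protuberance 0 were tested. Among these 4 tested genes, 0 were called by edgeR or had an adjusted p of at most 0.05 by DESeq2.

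Proteins of the same ribosome that carry other symbols were counted apart. Of 5 such genes, 4 were tested and 2 were higher in the siAPEX1 libraries, where 15.9% of all genes tested were higher. The list is too short for the shares to be compared. DAP3 (chromosome 1 from 155687960 to 155739010), which encodes a GTP-binding protein of the small subunit, had 17.6, 15, 15.8 and 14.4 CPM in the siCTRL libraries and 23.1, 26.8, 23.1 and 27.0 CPM in the siAPEX1 libraries. The groups did not overlap, and the log2 fold change was 0.66 (SE 0.177, adjusted p = 0.00315, edgeR). With library size as the sole scaling it was 0.32 and the call was lost (adjusted p = 0.146). PTCD3 (chromosome 2 from 86106223 to 86142157), an RNA-binding protein of the small subunit, had 13.1, 7.26, 10.7 and 7.19 CPM against 13.2, 9.74, 17.3 and 22.2 CPM. These groups overlapped, and the log2 fold change was 0.71 (SE 0.25, adjusted p = 0.0266, edgeR). That call was lost without siCTRL replicate 2 (adjusted p = 0.0835) or 4 (0.0726), without siAPEX1 replicate 3 (0.0629) or 4 (0.164), and by DESeq2 (0.0921).

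The gene of this list below the filter was GADD45GIP1 (chromosome 19 from 12953119 to 12957223, minus strand), which encodes a large subunit protein and was named after its values were seen. It had 16, 7, 12 and 19 counts in the siCTRL libraries and 1, 2, 1 and 4 in the siAPEX1 libraries, and the groups did not overlap. Its log2 fold change in the edgeR fit over all genes with at least 1 count was -2.14 (SE 0.472, adjusted p = 2.02e-04). The other 2 genes of the list, AURKAIP1 and CHCHD1, given to complete it, had log2 fold changes of -0.19 (SE 0.297) and -0.15 (SE 0.239).

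Of 17 translation factors and regulators of mitochondrial messenger RNA, 7 were tested, 1 was lower and 2 were higher by edgeR. Over all 5368 genes tested, 15.8% were lower and 15.9% higher, and with 7 genes the shares were not compared. SLIRP (chromosome 14 from 77708071 to 77761104), which with LRPPRC keeps mitochondrial messenger RNAs stable, had 64, 53, 65 and 38 counts in the siCTRL libraries and 22, 25, 23 and 22 in the siAPEX1 libraries. In CPM all siAPEX1 libraries (16.6 to 20.3) lay below all siCTRL libraries (21.0 to 32.2), and the log2 fold change was -0.60 (SE 0.179, adjusted p = 0.00839, edgeR). DESeq2 gave it an adjusted p of 0.0606. Its partner LRPPRC, named after its value was seen, had a log2 fold change of -0.11 (SE 0.14, adjusted p = 0.604, edgeR).

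MTRFR (chromosome 12 from 123233385 to 123258079), a factor that frees stalled mitochondrial ribosomes, had 8.05, 6.78, 6.02 and 6.09 CPM in the siCTRL libraries and 13.2, 9.74, 16.6 and 15.1 CPM in the siAPEX1 libraries. The groups did not overlap, and the log2 fold change was 1.02 (SE 0.253, adjusted p = 0.00156, edgeR). MTIF3 (chromosome 13 from 27435643 to 27450591), an initiation factor, had 8.55, 5.81, 4.63 and 1.66 CPM against 9.88, 10.6, 11.5 and 7.94 CPM, with overlap. Its log2 fold change was 0.93 (SE 0.317, adjusted p = 0.0218, edgeR), and the call was lost without siCTRL replicate 3 (adjusted p = 0.0577) or 4 (0.0926), without siAPEX1 replicate 3 (0.0672) and by DESeq2 (0.0753). TUFM, the mitochondrial elongation factor, also named after its value was seen, had -0.43 (SE 0.19, adjusted p = 0.0768, edgeR).

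Of 26 genes that assemble the mitochondrial ribosome, 3 were tested, with log2 fold changes of -0.34 to 0.38. Of 9 genes that transcribe or copy mitochondrial DNA, 3 were tested, with log2 fold changes of -0.12 to 0.18. None of these 6 genes had an unadjusted p under 0.05 by edgeR, and DESeq2 called none either. The other 23 and 6 genes of these lists were below the filter. In the edgeR fit over all genes with at least 1 count their SE was 0.38 to 0.89 and 0.38 to 0.63. That fit called 0 of the 26 and 0 of the 9 genes, with 3 and 1 at an unadjusted p under 0.05. Of all its 22272 genes, 8.21% were called and 3928 had an unadjusted p under 0.05.

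The ribosomal RNAs were read far more often than the proteins. MT-RNR1, the 12S RNA of the small subunit, took 5.22% ± 0.184 of all counts in the siCTRL libraries and 4.46% ± 0.253 in the siAPEX1 libraries, and MT-RNR2, the 16S RNA of the large subunit, 11.4% ± 0.826 and 11.9% ± 0.868 (SD, n = 4 each). In these shares the groups overlapped for MT-RNR2 and not for MT-RNR1, which was lower in the siAPEX1 libraries. After TMM scaling MT-RNR2 was higher, by 0.39 on the log2 scale (SE 0.0778, adjusted p = 1.04e-04, edgeR). MT-RNR1 had a log2 fold change of 0.11 (SE 0.0758, adjusted p = 0.30, edgeR). In CPM every siAPEX1 library lay above every siCTRL library for both, with 49000 to 53500 against 45900 to 48200 for MT-RNR1. With library size as the sole scaling, the log2 fold changes of MT-RNR2 and MT-RNR1 were 0.05 (adjusted p = 0.607, edgeR) and -0.23 (adjusted p = 0.00843, edgeR). The direction of MT-RNR1 thus turned with the scaling.

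In both kinds of ribosome and in the respiratory chain, the share of genes called was below that of all genes tested. That share was 31.7% over all genes tested and 28.2% over the nuclear protein-coding genes among them, APEX1 left out. Of 79 genes for proteins of the cytosolic ribosome, 77 were tested, 3 were lower and 5 higher by edgeR, or 10.4%, with a median log2 fold change of 0.06. Of 86 nuclear genes for subunits of the respiratory chain and ATP synthase, 75 were tested, 13 were lower and 3 higher, or 21.3%, with a median of -0.04. These families differ in depth, with a median mean count of 249 for the cytosolic ribosome and 28.4 for the respiratory chain against 15.4 for the mitochondrial ribosome, and the difference between the families was not tested.

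With library size as the sole scaling, the median over all genes tested shifted to -0.34 on the log2 scale, and that of the 38 genes of the family to -0.35. A change of scaling moves all genes by nearly the same amount, so the closeness of these shifts is no sign of stability. Under that scaling edgeR called 7 of the 38 genes, all lower, beside 36.2% of all genes tested that were lower.

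Sequence features outside the rule were shared by part of the family. Promoter windows from 250 bases before to 50 bases after the start site were found in RefSeq (GRCh38.p14) for 69 of the 78 genes. AAGATGGC, the core of the YY1 element, which overlaps a start codon in its letters, was searched on both strands and found for 21 of the 69 genes, or 30.4%, against 4.66% of 15842 protein-coding genes. In 16 of the 21 genes it lay after the start site. ACTTCCGG, a core of the ETS element, was found for 12 genes, or 17.4%, against 6.97%, and GCATGCGC, a core of the NRF1 element, for 6 genes, or 8.7%, against 4.89%. The shorter CTTCCGG, which lies within ACTTCCGG and was added after sequences were seen, was found for 30 genes, or 43.5%, against 16.5%. A match of letters is a description and says nothing on whether a factor binds.

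For 3 large and 3 small subunit genes the first bases after the start site are shown, because they hold the motif with the highest ratio of its share in the family to its share in all promoters. Capitals mark AAGATGGC. The windows of 30 bases are chr12:93467516-93467545 (plus strand) for MRPL42, chr17:38297170-38297199 (plus) for MRPL45, chr12:6493231-6493260 (minus) for MRPL51, chr17:75261881-75261910 (plus) for MRPS7, chr5:72320209-72320238 (minus) for MRPS27 and chr5:44808949-44808978 (plus) for MRPS30.
MRPL42: tgaaacAAGATGGCgggttcgtggtgagaa
MRPL45: tttgcgggaacAAGATGGCagcccccatac
MRPL51: agctgcctgggtaaggcccAAGATGGCtgt
MRPS7: ggtcctcgtggccagccAAGATGGCtgccc
MRPS27: ttttggtacgctccAAGATGGCtgcctcca
MRPS30: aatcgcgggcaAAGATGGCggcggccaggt
None of these 6 genes was called by edgeR or by DESeq2, and all 6 have an interval of the log2 fold change that includes 0.

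Some members have copies elsewhere or neighbours that share their exons. The 79 pseudogenes of the family together had 2 to 7 counts per library. Exons of 18 members overlap another gene on the same strand and those of 30 overlap a gene on the other strand, while 37 have neither. The study counted with the gene counts of STAR, and whether these used strand is not given in the sources used here. How reads in exons shared with another gene, on either strand, entered the counts was not analysed, so levels of such members are uncertain.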

How the data were processed

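Per the labels, total RNA of A549 cells was read in 4 siCTRL and 4 siAPEX1 libraries. The authors aligned reads to GRCh38 with STAR (2.5.3a in the submitters' processing notes) and deposited whole-number counts per gene without normalization. The annotation release and the strand setting are not given in the sources used here. GENCODE 44 held 57532 of the 58302 identifiers. The members, gene lists and tests were chosen with earlier results of these data known.

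Counts were tested with edgeR 4.0.16 in R 4.3.3 by the quasi-likelihood test, with TMM factors, filterByExpr (minimum count 10, minimum total 15) and Benjamini-Hochberg adjustment over all 5368 genes kept. Alternatives were DESeq2 1.42.0, other scalings and filters, a replicate block and each library left out. The programs were tested on simulated data. The SE given for edgeR was derived from its test, as the absolute log2 fold change over the square root of the F value. Intervals of 95% were built from this SE and a t quantile. They cover the spread between libraries, and a floor of 3 counts covers counting error only.

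Genes were named if called in the family, among the 4 most abundant per kilobase or the 3 closest to 0 of a subunit, called in a related list (at most 10), among MRPS30 and the MRPS18 paralogues, or APEX1 and the mitochondrial ribosomal RNAs. Genes outside this rule (MRPL3, MRPS14, GADD45GIP1, AURKAIP1, CHCHD1, LRPPRC, TUFM, NR2C2 and the keratins) were chosen with their values known.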

Additional observations from a re-analysis of the deposited data

Results flagged for a closer look

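In 4 of the 78 groups of 4 values looked at, 1 library stood apart from the other 3 by the 95% limit of Dixon's ratio, which is the gap to the nearest library over the range of the group. Chance gives about 1 such group in 20. The ratio was 0.953 for the CPM of MRPS18B in the siCTRL libraries, where replicate 1 had 13.6 CPM and the others 9.2 to 9.41. It was 0.852 for the CPM of MT-RNR1 in the siCTRL libraries and 0.923 for its percent of all counts there, where replicate 2 was lowest in both. For the percent of all counts on nuclear protein-coding genes without APEX1 it was 0.864 in the siAPEX1 libraries, where replicate 1 had 12.7% and the others 12 to 12.1%.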

How the results depend on the processing

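MRPS16 was lower in each of the 16 alternatives that tested it, with log2 fold changes of -2.1 to -1.53 and adjusted p of at most 0.00148, whereas the calls of MRPS21 and MRPS25 were lost in 9 of 17 and 11 of 15 alternatives (adjusted p up to 0.499 and 0.236). The 3 members called became 7 with library size as the sole scaling, and 1 with DESeq2, with all genes of at least 1 count, with at least 10 counts in every library (9 members tested, MRPS16 not among them, the call being MRPS12 at -0.50) and with the replicate block, and 1 to 3 when 1 library was left out. With the fold asked for as well, 1 became 2 with library size only, 0 with at least 10 counts in every library and 2 at a log2 fold of 0.75, and 1 to 2 without 1 library. For the large subunit 0 became 3 with library size only and 0 to 1 without 1 library. For the small subunit 3 became 1 with DESeq2, with all genes of at least 1 count, with at least 10 counts in every library and with the replicate block, and 1 to 3 without 1 library.

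The median log2 fold change of the members, -0.01, became -0.35 with library size only, -0.17 with all genes of at least 1 count and -0.17 with at least 10 counts in every library, and -0.18 to -0.01 without 1 library. That of the large subunit, 0.13 over 20 genes, became -0.21 with library size only and -0.20 with all genes of at least 1 count. Without 1 library it was -0.18 to 0.14, over 22 to 31 tested genes. That of the small subunit, -0.08, became -0.42, -0.17 and -0.17 under the same 3 settings as the members. The log2 ratio of the shares, siAPEX1 to siCTRL, was -0.37 (members), -0.35 (large) and -0.40 (small) of all counts and -0.04, -0.02 and -0.07 of nuclear protein-coding counts. The log2 ratio of large to small counts, 0.05, became 0.21 over the 9 members with at least 10 counts in every library, where the groups overlapped. MT-RNR1 turned from 0.11 to -0.23 with library size only. Apart from what the settings themselves change, the cause was not tested.

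Same-numbered libraries did not deviate together (correlations -0.0373 to -0.00348). Counting noise at these depths could give such values with or without a pairing, so whether the numbers pair the libraries is not known. The replicate block left 1 member called, MRPS16, while MRPS21 (adjusted p = 0.0589, edgeR) and MRPS25 (0.0762, edgeR) lost their calls. It is given as a setting only. A mean of at least 10 counts over the 8 libraries, a filter added after seeing the data, tested 34 members and called 2. Depth limits the 40 members below the filter.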
